A study of Mus musculus with 18 samples.

Results

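Mouse kidneys were compared after 5 weeks of Lin28A overexpression (OE) with control kidneys kept on the same drug for the same time, to see which transcripts were still changed once the Lin28a transcript itself had fallen from its level at the earlier weeks. The comparison holds 3 OE and 3 control libraries of the 18 sequenced, and the 16984 of 49585 annotated genes whose mean normalized value over all 18 libraries was above 10. Every mouse carried what the labels call Lox-stop-Lox-TetOn-Lin28A. By the study's methods these are 2 alleles, TRE-Lin28A, a Lin28A transgene under a promoter that responds to doxycycline (Dox), and Lox-stop-Lox-TetOn-rtTA, in which a stop cassette precedes the Dox-dependent activator rtTA. The OE mice also carried Six2Cre, so that the cassette was removed in the Six2-expressing cap mesenchyme and in the nephron epithelium that descends from it. Controls lacked Six2Cre and likewise drank Dox. The other libraries came from the same genotypes after 1 and 2 weeks of Dox, again 3 OE and 3 control. RNA was taken from whole kidney, so the blood vessels, the interstitium, the collecting duct and infiltrating cells, which do not come from the Six2 lineage, were measured together with the nephron. The labels used here give neither sex nor age, and they do not say whether the libraries of a group are from separate animals, so the p-values measure the spread between libraries, which may in part be technical.

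LIN28A is an RNA-binding protein of embryonic cells. It binds the precursors of the let-7 microRNAs and keeps them from maturing, which raises the transcripts that let-7 would repress, and it also binds many messenger RNAs. In the embryonic mouse kidney it is present in the nephron progenitors for a limited time and is then shut off. The adult nephron filters blood at the podocytes of the glomerulus, recovers most solutes in the proximal tubule at a high cost in mitochondrial energy, and adjusts salt in the thick ascending limb and the distal convoluted tubule. Injured tubule cells lose transporters and mitochondria, make injury proteins and chemokines, and draw in macrophages.

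Values are reads per gene divided by a size factor of each library, called normalized reads below. They compare one gene between libraries and carry no correction for gene length. The 6 libraries at 5 weeks held 25620807 to 28686369 reads assigned to genes, within the 21176911 to 28686369 of the whole series, so depth differed little between the groups. A DEG is a gene with a log2 difference above 1 or below -1 and a limma adjusted p under 0.05, adjusted over all 16984 genes. Libraries are named by replicate number, and values are given in the order of replicates 1, 2 and 3. The kidney label fitted its defining markers: in the 5-week controls Slc34a1, the proximal tubule phosphate transporter, stood at 89011 to 97665 normalized reads and Umod, the uromodulin of the thick ascending limb, at 45836 to 62603. Among the 5-week libraries, OE replicate 2 and control replicate 3 held more than 100 normalized reads of Xist, the RNA that silences an X chromosome in female cells, so each group held 1 such library and 2 others. At 2 weeks 2 OE libraries and 1 control were above 100, and at 1 week 1 OE library and no control. Of tissues that can adhere to a dissected kidney, adrenal cortex (4 genes tested) and fat (8) had no member called by limma, edgeR or DESeq2 and 1 member each at an unadjusted limma p under 0.05. Fat content was uneven all the same: the summed level of its list was 385 in OE replicate 3, 6101 and 6216 in the other OE libraries and 3416 to 11117 in the controls, and the median log2 difference was -1.47. Of 5 liver genes tested, Apoa1, an apolipoprotein, was higher (log2 difference 2.59, adjusted p = 0.0209), and DESeq2 called 2. The summed level of the liver list was 2617 to 11488 in the OE and 120 to 1210 in the control libraries, nearly all of it Ttr, the carrier protein transthyretin (adjusted p = 0.0702), whereas Alb, albumin, stood at 9.67 to 19.6 in the OE and 14.6 to 40.9 in the control libraries. Of 3 skeletal muscle genes tested, Actn3, a muscle alpha-actinin, was lower (adjusted p = 0.021). The Apoa1 call was lost without OE replicate 2, control replicate 1 or control replicate 3, and the Actn3 call without each library but OE replicate 1. OE replicate 1 lay nearest the controls for most of the lower genes. Over the 2860 genes that were lower DEGs at 2 weeks, its median log2 distance from the 5-week control mean was -0.30, against -0.67 and -0.63 in OE replicates 2 and 3.

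At 5 weeks Lin28a remained above control, far below its earlier level. Lin28a (ENSMUSG00000050966.9, chromosome 4, 134003330 to 134018841, minus strand, GRCm38) stood at 615, 600 and 420 normalized reads in the OE libraries and at 28.5, 26.4 and 16.4 in the controls. No OE library came near the control range, and the means differed 22.9-fold (log2 difference 4.48, SE 0.29, adjusted p = 7.56e-07). The mean of the OE libraries had been 102 times as high at 1 week and 147 times as high at 2 weeks as it was at 5 weeks, and the log2 OE effect at 5 weeks was smaller than that at 2 weeks by an interaction of -7.55 (adjusted p = 5.08e-08). An exact two-sided permutation test of 3 against 3 cannot go below 0.1, and Lin28a reached that value. The counts do not separate transgene from endogenous Lin28a.

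Six2, the transcription factor that keeps nephron progenitors undifferentiated and whose promoter drives the Cre, followed the same course. Six2 (chromosome 17, 85684277 to 85688274) stood at 159, 95.4 and 48.3 normalized reads in the OE libraries and at 2.11, 3.65 and 2.05 in the controls. The OE libraries were all higher, with a log2 difference of 4.69 (SE 0.58, adjusted p = 0.00012) against 13.02 at 2 weeks. Whether the reads come from the endogenous gene or from the Cre construct was not tested. Of 13 tested genes of the nephron progenitor list, Six2 was the member that rose, while Lhx1, a factor of early nephron patterning, fell by 0.85 on the log2 scale (adjusted p = 0.00443) and Meox1 fell by 0.88 (adjusted p = 0.028). The Meox1 call was lost without each of 5 libraries, with adjusted p between 0.0634 and 0.123. The other 10 members did not pass.

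**Figure D1:**
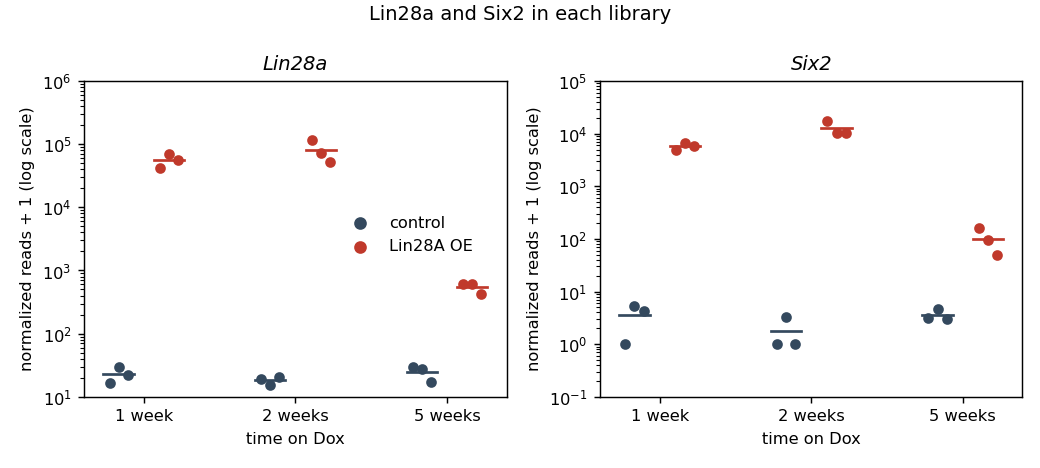
Normalized reads plus 1 of Lin28a and Six2 in each of the 18 libraries, on a log axis, by week and group, with 1 point per library and a bar at the group mean. The 3 OE libraries at 5 weeks lie between 420 and 615 for Lin28a, below the OE libraries of 1 and 2 weeks and above every control.

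Over all genes, 818 were higher DEGs at 5 weeks (4.82% of those tested) and 514 lower DEGs (3.03%). The 3 OE libraries did not overlap the 3 controls for 783 of the higher and 491 of the lower DEGs. Among all tested genes 17.3% lay wholly above and 17.8% wholly below. At 2 weeks 14.8% of genes had been higher and 16.8% lower DEGs, and at 1 week 8.21% and 5.02%. The size factors centre the typical gene, so the median log2 difference of all genes, 0.018 at 5 weeks, is near 0 by construction and a shift common to most transcripts would not be seen.

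Most of what was changed at 5 weeks had been changed before. Of the 818 higher DEGs, 457 were also higher DEGs at both earlier weeks, 161 at 2 weeks but not 1, 21 at 1 week but not 2, and 179 at neither. Of the 514 lower DEGs the same classes held 214, 210, 4 and 86 genes. Read the other way, 618 of 2512 higher DEGs of 2 weeks were still higher DEGs at 5 weeks (24.6%), and 424 of 2860 lower DEGs were still lower (14.8%). Those 2-week genes were chosen on their 2-week difference, so a smaller value later is in part given by the choice. As a description, their median log2 difference went from 1.72 to 0.61 for the higher and from -1.69 to -0.54 for the lower set. The week-by-week difference passed at an adjusted p under 0.05, towards control, in 1384 of the 2512 (55.1%) and 1793 of the 2860 (62.7%). At that limit the effect was lower at 5 than at 2 weeks in 14.4% of all genes and higher in 14.9%. The 2-week libraries that chose these genes also enter this test, so its shares are likewise in part given by the choice. Over all genes, with DEG criteria on the interaction, the effect was higher at 5 than at 2 weeks in 9.01% and lower in 7.27%, and against 1 week it was higher in 1.07% and lower in 2.54%. The controls of 5 and 2 weeks, which enter these interactions, differed in 14 DEGs, 0.0353% of genes higher and 0.0471% lower. The number of DEGs depends on the libraries: leaving out OE replicate 3 gave 486 higher and 289 lower DEGs, leaving out OE replicate 2 gave 296 lower ones, and leaving out OE replicate 1 gave 803 lower ones. A fit of the libraries with Xist below 100, 4 of them at 5 weeks, gave 496 and 238. Of the genes named below, that fit lost the calls of Mx1, Trem2, Cdkn1a, Slc13a1, Lrp2, Umod, Scnn1b, Meox1, Cryab, Ctf1, Cd59a and Cd2ap, at an adjusted p between 0.0528 and 0.237.

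**Figure D2:**
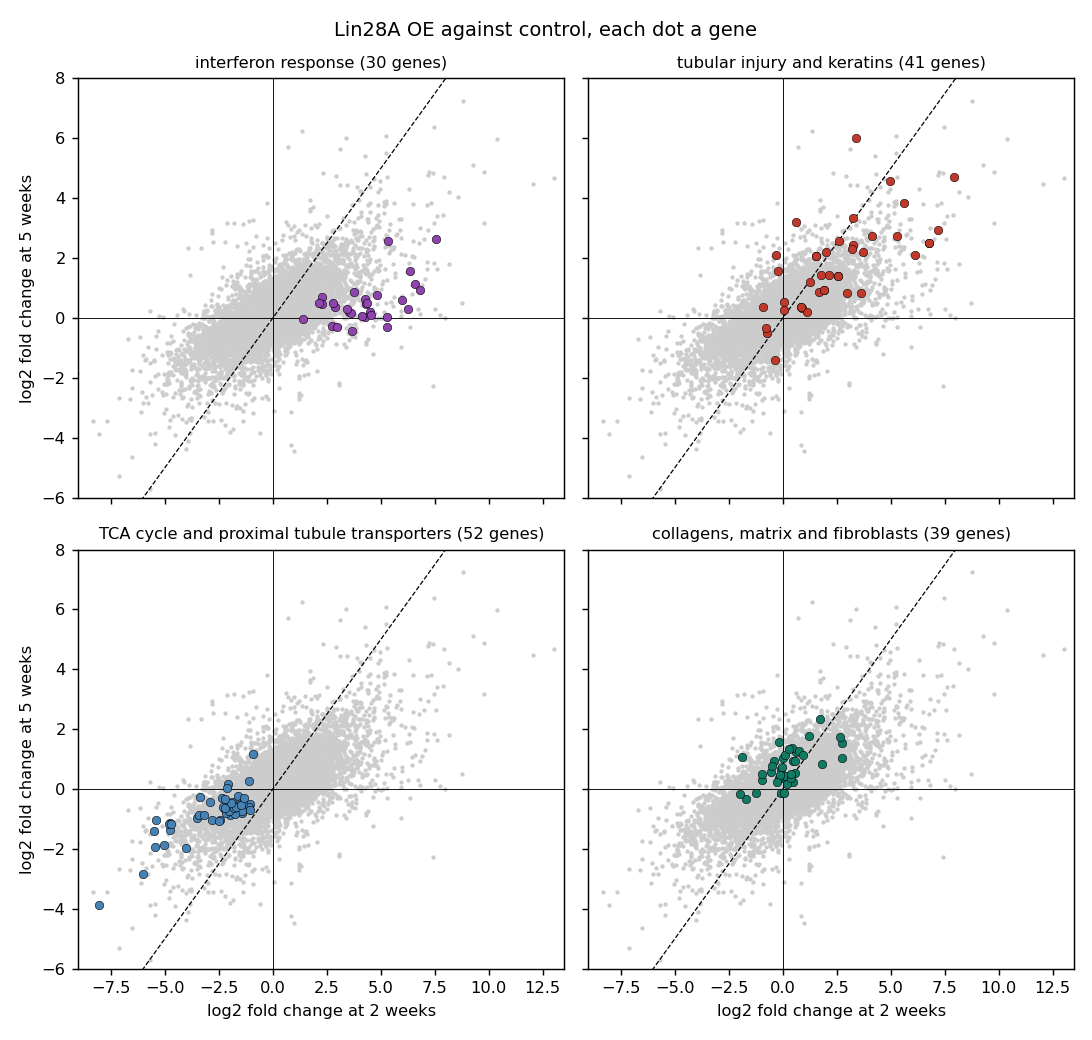
The log2 OE effect of each list member at 5 weeks (vertical) against that at 2 weeks (horizontal), in 4 panels of gene lists, with list members coloured, all tested genes in grey and equality as a dashed line. Interferon response members lie to the right of 0 at 2 weeks and below the line, at a median of 0.41 at 5 weeks, whereas most matrix genes lie above the line, at a median of 0.74.

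For most genes of the interferon response, the OE and control libraries overlapped again at 5 weeks. A larger share of them than of all genes still lay wholly above control. Type I interferon induces a large set of antiviral genes through a complex of transcription factors that binds the interferon-stimulated response element. The promoters of 3 such genes are shown because they hold that element, while another motif is marked in the chemokine promoters given further on. The capitals mark the core of that element, GAAA and GAAA separated by any 2 bases, on either strand, and sequences are from RefSeq (GRCm38.p6), written along the gene from 5′ to 3′ with up to 30 bases on each side.

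Ifit1 (chr19:34640755-34640843, plus strand): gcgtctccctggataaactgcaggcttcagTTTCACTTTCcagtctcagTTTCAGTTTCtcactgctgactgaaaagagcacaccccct
Isg15 (chr4:156200845-156200926, minus strand): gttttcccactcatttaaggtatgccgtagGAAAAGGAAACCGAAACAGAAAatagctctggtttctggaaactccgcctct
Rsad2 (chr12:26456533-26456602, minus strand): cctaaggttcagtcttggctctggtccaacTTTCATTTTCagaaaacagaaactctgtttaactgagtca

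In the 250 bases before the start site, 10 of the 21 interferon response genes with a promoter entry held this core (47.6%), against 936 of 27025 promoters in all (3.46%). A match is a string of letters and not a measured binding site. The 3 genes were chosen after their values had been seen. Isg15, a ubiquitin-like modifier, stood at 213, 162 and 124 normalized reads in the OE libraries and at 278, 116 and 125 in the controls at 5 weeks. The groups overlapped (log2 difference 0.03, adjusted p = 0.97), whereas at 2 weeks the OE libraries had held 12232, 3875 and 5068. Ifit1, which binds foreign RNA ends, stood at 496, 510 and 293 against 424, 186 and 264 in the controls. Its groups overlapped as well (log2 difference 0.61, adjusted p = 0.212), after 5.96 at 2 weeks. Rsad2, the antiviral enzyme viperin, stood at 2467, 1640 and 1090 against 2119, 1839 and 2044, with a log2 difference of -0.28 (adjusted p = 0.627) after 5.29 at 2 weeks.

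Of the 30 interferon response members, 11 lay above control in all OE libraries, where 17.3% of all tested genes did. The test passed 7 as higher at 5 weeks and none as lower, with a median log2 difference of 0.41. Over all genes, 7.67% passed as higher and 7.9% as lower at 5 weeks, where passing means an adjusted p under 0.05 at any size. All 30 had passed as higher at 2 weeks (background 28.9%) and all 30 at 1 week (18.7%), with medians of 4.27 and 2.93. The effect was smaller at 5 than at 2 weeks for 30 of 30 members (background 14.4%) and smaller than at 1 week for 28 (5.2%). Mx1, a dynamin-like antiviral GTPase, was among those still higher, at 26.1, 34.6 and 35.2 against 9.51, 0.912 and 6.14 normalized reads. Its libraries did not overlap (log2 difference 2.64, SE 0.63, adjusted p = 0.0101), but the call was lost without control replicate 2 (log2 difference 1.92, adjusted p = 0.0548). Oas2, which makes the activator of RNase L, stood at 98.2, 281 and 245 against 46.5, 16.4 and 39.9. It kept its call without each library in turn (log2 difference 2.56, SE 0.47, adjusted p = 0.00197). The count of 7 fell to 4 without OE replicate 2, control replicate 2 or control replicate 3, and to 1 in the libraries with Xist below 100.

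The genes for cytosolic GTPases and for antigen presentation on MHC class I, which interferons also raise, also had few members still higher. Of 15 interferon-induced GTPases 2 were higher (background 7.67%), with a median log2 difference of 0.45 after 3.09 at 2 weeks. Of 18 MHC class I genes 2 were higher, with a median of 0.33 after 1.95. Both counts are near the background share. The GTPase count was 0 without control replicate 2, 1 without OE replicate 2 or 3 and 5 without control replicate 1, and the MHC count was 1 without OE replicate 3 and 4 by DESeq2 or with the replicate block. The effect was smaller than at 2 weeks for 13 of 15 and 15 of 18 (background 14.4%). Tap1, which carries peptides into the endoplasmic reticulum, stood at 434, 378 and 441 against 268, 149 and 236 normalized reads. The groups were apart (log2 difference 0.97, SE 0.21, adjusted p = 0.00504).

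**Figure D3:**
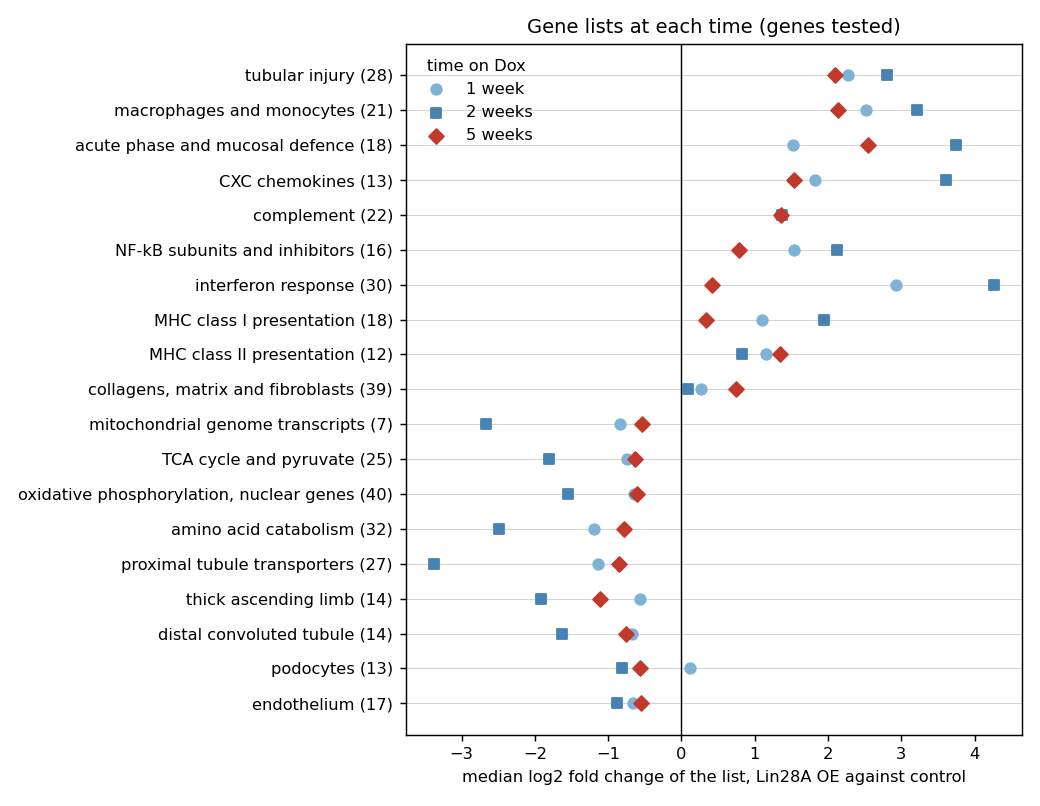
Median log2 OE effect of 19 gene lists at 1, 2 and 5 weeks, with 1 point per list and week. At 5 weeks the interferon list is at 0.41 and the injury list at 2.09, while the transporter and mitochondrial lists lie between their 2-week values and 0.

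More of the chemokine and NF-kB genes still differed from control at 5 weeks. NF-kB dimers are held in the cytoplasm by inhibitors until a cytokine or cell damage frees them, and they then bind short sites near inflammatory genes. The next 3 promoters are shown because they hold such a site. The capitals mark it, GGG, any 2 bases and TTTCC, on either strand.

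Cxcl1 (chr5:90891126-90891213, plus strand): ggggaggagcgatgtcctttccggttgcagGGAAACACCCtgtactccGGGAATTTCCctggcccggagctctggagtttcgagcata
Cxcl2 (chr5:90903772-90903860, plus strand): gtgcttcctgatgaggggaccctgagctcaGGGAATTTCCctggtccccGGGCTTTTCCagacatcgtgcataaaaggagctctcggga
Ccl20 (chr1:83116656-83116725, plus strand): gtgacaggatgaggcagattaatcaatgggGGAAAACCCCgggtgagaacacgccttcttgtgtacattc

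This site was in 447 of 27025 promoters (1.65%), in 0 of the 21 interferon response promoters, in 4 of 12 of the NF-kB subunits and inhibitors, in 2 of 9 of the CXC chemokines and in 2 of 13 of the CC chemokines. The interferon core was in turn in 2 of the 9 CXC chemokine promoters (22.2%) and in 1 of the 13 of the CC chemokines. The 3 matches of the interferon core in Isg15 overlap one another. The absence of the letters says nothing of the factor.

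Cxcl1, a neutrophil chemoattractant, stood at 252, 313 and 305 normalized reads in the OE libraries and at 3.17, 62 and 20.5 in the controls. The OE libraries lay in a narrow band above a scattered control group (log2 difference 4.03, SE 0.68, adjusted p = 0.00113), though the effect had been 8.57 at 2 weeks and the change since then was -4.55 (adjusted p = 0.00214). Cxcl2, of the same function, stood at 27.9, 54.2 and 114 against 1.06, 3.65 and 2.05. It was higher in every OE library (log2 difference 4.21, SE 0.56, adjusted p = 0.00023). Cxcl10, which attracts activated T cells, stood at 177, 203 and 213 against 26.4, 29.2 and 37.8. The spread within each group was small (log2 difference 2.64, SE 0.27, adjusted p = 2.27e-05). Cxcl17, a mucosal chemokine, stood at 44.1, 86 and 65.9 against 1.06, 5.47 and 2.05. All OE libraries were higher (log2 difference 4.22, adjusted p = 0.000773), and the effect had been 4.15 at 2 weeks (interaction 0.07, SE 0.95, adjusted p = 0.964). Of 13 CXC chemokines tested, 7 were higher and none lower, with a median log2 difference of 1.54 after 3.61 at 2 weeks.

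Among the CC chemokines, Ccl20, which attracts cells bearing CCR6, stood at 44.1, 29 and 79.1 normalized reads against 3.17, 0 and 0. The control group held 3 reads in all against 170, a ratio of 51.6 with a 95% counting interval of 17.4 to 253 (log2 difference 4.89, adjusted p = 0.000279). Ccl2, the main monocyte attractant, stood at 168, 107 and 495 against 13.7, 28.3 and 38.9. OE replicate 3 was the highest and all OE libraries were above control (log2 difference 3.01, SE 0.56, adjusted p = 0.0022). Ccl2 and Ccl12 are close copies, and how shared reads were counted was not stated. Of 18 CC chemokines, 9 were higher and none lower (median 1.44). The count fell to 3 without OE replicate 3.

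The interleukin 1, TNF and IL-6 families changed in part. Il1f6 encodes IL-36 alpha, an epithelial cytokine, and stood at 56.7, 40.2 and 51.9 normalized reads against 2.11, 0 and 0. The 165 reads of the OE group against 2 gave a ratio of 75.1 with a 95% counting interval of 20.5 to 625 (log2 difference 5.10, adjusted p = 3.55e-05). Il1rn, the receptor antagonist that blocks IL-1, stood at 67.5, 34.6 and 134 against 6.34, 6.38 and 3.07 (log2 difference 3.51, adjusted p = 0.000481). In all 9 of 17 members of the interleukin 1 list were higher, and none lower. Tnf itself stood at 14.4, 4.67 and 30.8 against 4.23, 7.29 and 11.3, with overlapping groups (log2 difference 0.80, adjusted p = 0.285). Without OE replicate 2 it passed (log2 difference 1.45, adjusted p = 0.034). Its receptor relative Tnfrsf12a, the TWEAK receptor of injured epithelium, stood at 871, 1951 and 1974 against 278, 354 and 354. These groups were well apart (log2 difference 2.19, SE 0.30, adjusted p = 0.000278), and 6 of 19 TNF ligands and receptors were higher. Il6 was below the filter on low values. It had 35 reads in the OE libraries and none in the controls, at least 10.5-fold higher when the controls are set to 3 reads over the group.

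The IL-6 family signals through gp130 and STAT3, with Socs3 as its feedback inhibitor. Lif, a member that acts on epithelium, stood at 71.1, 122 and 198 normalized reads against 7.4, 4.56 and 10.2. All OE libraries were higher (log2 difference 3.91, SE 0.42, adjusted p = 3.22e-05). Osmr, the oncostatin M receptor, stood at 1209, 1417 and 1424 against 391, 252 and 293, and the spread within each group was small against the gap (log2 difference 2.13, SE 0.17, adjusted p = 5.1e-06). Socs3 stood at 519, 919 and 1319 against 69.7, 100 and 83.9. It was higher throughout (log2 difference 3.34, SE 0.29, adjusted p = 1.14e-05). Of 15 members of this list 7 were higher and 1, the cytokine Ctf1, was lower (fell by 0.59 on the log2 scale, adjusted p = 0.0333, a call lost without each of the 6 libraries, at 0.0594 to 0.103). Among 16 NF-kB subunits and inhibitors 10 were higher and none lower, with a median of 0.79 after 2.12 at 2 weeks, and the effect had become smaller in 11. Bcl3, a nuclear partner of NF-kB, stood at 291, 269 and 425 against 57.1, 45.6 and 63.4. The gap was wide (log2 difference 2.53, SE 0.25, adjusted p = 2.11e-05). Relb, a subunit of the alternative pathway, was higher by a log2 difference of 1.25 (adjusted p = 0.000207), whereas Nfkbia, the inhibitor that NF-kB itself induces and a gene chosen after its values had been seen, stood at 1798, 2352 and 1870 against 1745, 1705 and 1201 (log2 difference 0.38, adjusted p = 0.257).

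**Figure D4:**
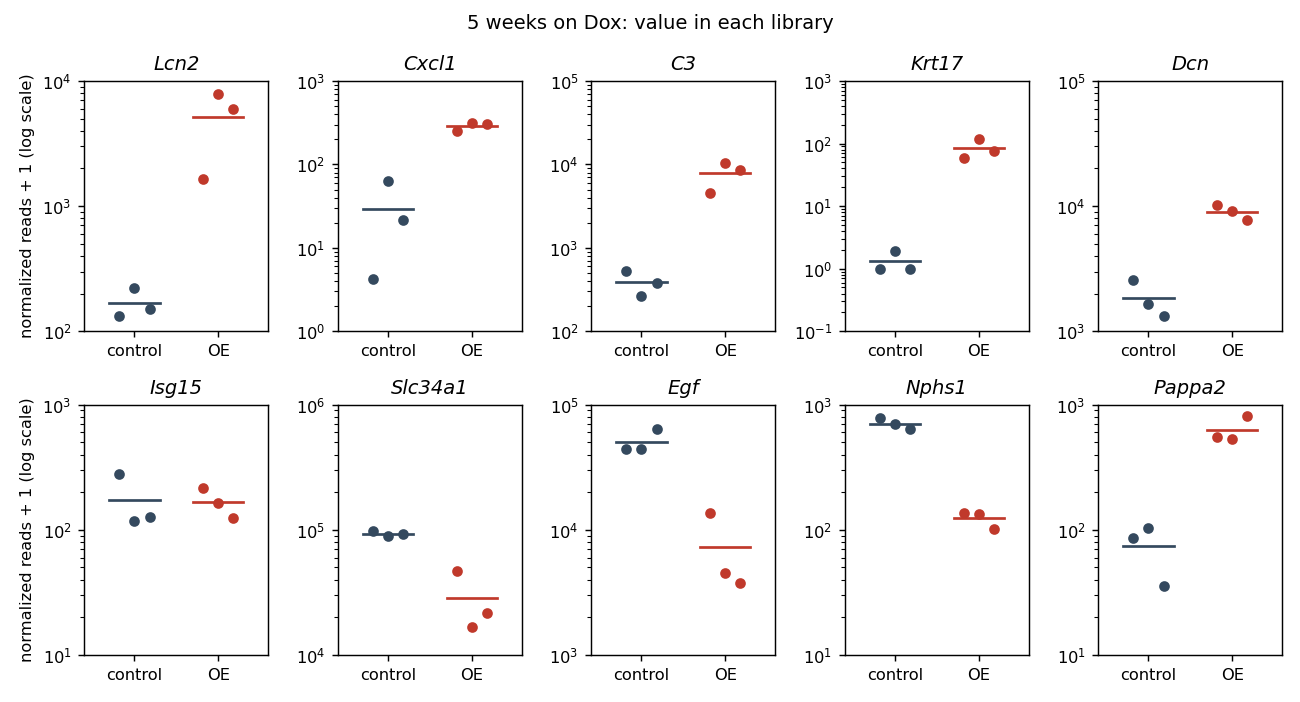
Normalized reads plus 1 of 10 genes in the 3 OE and 3 control libraries at 5 weeks, on log axes, 1 panel per gene, with 1 point per library and a bar at the group mean. Lcn2, Cxcl1, C3, Krt17, Dcn and Pappa2 lie above control in all 3 OE libraries, Isg15 overlaps it, and Slc34a1, Egf and Nphs1 lie below it.

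Most tubular injury genes were still high at 5 weeks, some of them by less than at 2 weeks. Lcn2, the iron-chelating lipocalin that injured distal tubules release, stood at 1635, 7827 and 5947 normalized reads in the OE libraries and at 132, 221 and 148 in the controls. OE replicate 1 was the lowest of its group and still far above control (log2 difference 4.69, SE 0.47, adjusted p = 2.27e-05). Timp1, an inhibitor of metalloproteinases, stood at 353, 294 and 636 against 18, 16.4 and 14.3. Sox9, a transcription factor of regenerating tubule cells, stood at 204, 332 and 491 against 39.1, 26.4 and 28.6. Both were higher in every OE library, with log2 differences of 4.56 (adjusted p = 1.91e-05) and 3.34 (adjusted p = 3.19e-05), and the Sox9 effect was larger than at 1 week by 2.00 (adjusted p = 0.0243). Havcr1, which encodes the proximal tubule injury receptor KIM-1, stood at 1272, 2022 and 4795 against 62.3, 167 and 389. The groups did not overlap (log2 difference 3.85, SE 1.00, adjusted p = 0.0159), but the controls also spread widely and the call was lost without OE replicate 3 (adjusted p = 0.0791) or control replicate 1 (adjusted p = 0.0724). Of 28 injury genes, 20 were higher and 1 lower, with a median of 2.09 after 2.80 at 2 weeks. The effect was smaller than at 2 weeks in 10 (background 14.4%) and larger in none. The lower member was Cryab, a small heat shock protein, which fell by 1.41 on the log2 scale (adjusted p = 0.0487). That call was lost without each library but control replicate 1.

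Keratins of stratified and urothelial-type epithelium, which form the cell's intermediate filaments, were higher at 5 weeks than at 2 weeks in several cases. Krt17 stood at 58.5, 118 and 73.8 normalized reads against 0, 0.912 and 0. The 275 reads of the OE group against 1 gave a ratio of 250.4 with a 95% counting interval of 44.6 to 9926 (log2 difference 6.03, SE 0.61, adjusted p = 2.27e-05). Its effect exceeded that at 2 weeks by 2.63 (adjusted p = 0.0303). Krt14, a basal cell keratin, stood at 95.5, 71.1 and 118 against 14.8, 30.1 and 19.4 at 5 weeks, and the groups were apart (log2 difference 2.12, SE 0.43, adjusted p = 0.00403). At 2 weeks it had stood at 16.9, 16.9 and 16.2 against 14.2, 32.2 and 20.5, so the groups overlapped then (interaction 2.45, adjusted p = 0.00692). The paper lists Krt14 among genes that were up at 1 week and went down from there to 2 weeks, so the rise at 5 weeks need not be its first. Krt4 stood at 27, 61.7 and 61.5 against 2.11, 5.47 and 6.14, with a log2 difference of 3.19 (adjusted p = 0.00061) and an interaction of 2.60 (adjusted p = 0.0104). Krt20, a keratin of injured tubules and of urothelial umbrella cells, stood at 228, 395 and 499 against 69.7, 86.6 and 39.9. It went the other way since 2 weeks, with a log2 difference of 2.49 (adjusted p = 0.00106) and an interaction of -4.28. Of 13 keratins 8 were higher and none lower. The count fell to 5 without OE replicate 3.

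Complement and acute phase genes were high, the complement list about as high as at the earlier weeks. C3, the central complement component, stood at 4595, 10451 and 8583 normalized reads against 524, 260 and 373. The lowest OE library was above every control (log2 difference 4.32, SE 0.45, adjusted p = 2.9e-05), and the effect did not pass as different from that at 2 weeks (interaction -0.66, SE 0.64, adjusted p = 0.474). C7, of the membrane attack complex, stood at 770, 793 and 764 against 70.8, 138 and 112. The OE libraries were nearly equal (log2 difference 2.90, SE 0.36, adjusted p = 0.000115). Of 22 complement genes 13 were higher and 1 lower, with a median of 1.35 against 1.37 at 2 weeks and 1.34 at 1 week. The lower gene was Cd59a, which protects cells from the attack complex (fell by 0.58 on the log2 scale, adjusted p = 0.0334, a call lost without each of the 6 libraries, at 0.0575 to 0.104). Fgg, the gamma chain of fibrinogen, stood at 602, 2730 and 1215 against 93, 80.2 and 89, apart in every library (log2 difference 3.84, adjusted p = 6.04e-05). Saa1, a serum amyloid, had 71 reads in the OE libraries and none in the controls, at least 21.6-fold higher with the controls set to 3 reads over the group. Saa1 and Saa2 are close copies. Of 18 acute phase and mucosal defence genes 11 were higher and none lower (median 2.55). The liver makes many of these proteins. Of the liver list, Alb stood at 9.67 to 19.6 normalized reads in the OE libraries against 14.6 to 40.9. Ttr stood at 2548 to 11399 against 28.5 to 1064 (limma adjusted p = 0.0702), and Apoa1 passed as higher (adjusted p = 0.0209). The part of adhering liver in the acute phase values was not tested.

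Macrophage genes were high in all OE libraries when summed. Bulk RNA cannot tell more cells of a type from more RNA per cell, here or in the lists that follow. Lyz2, the lysozyme of myeloid cells, stood at 4574, 4585 and 7436 normalized reads against 913, 651 and 678. All OE libraries were higher (log2 difference 2.86, SE 0.35, adjusted p = 0.000106). Gpnmb, a lysosomal glycoprotein of lipid-laden macrophages, stood at 134, 275 and 316 against 5.28, 6.38 and 0, again with no overlap (log2 difference 5.99, SE 0.70, adjusted p = 7.45e-05). Trem2, a lipid-sensing receptor, was higher by 3.30 (adjusted p = 0.00343). Of 21 macrophage and monocyte genes 17 were higher and none lower, and their summed level was 16282 to 23227 in the OE and 5440 to 6510 in the control libraries. The effect was smaller than at 2 weeks in 7. Ctss, a protease that prepares antigen for MHC class II, stood at 1071, 1463 and 2249 against 288, 136 and 183 (log2 difference 2.97, SE 0.32, adjusted p = 3.77e-05). H2-Ab1, a class II chain, stood at 1837, 659 and 2041 against 586, 314 and 409. Its OE replicate 2 came close to the controls (log2 difference 1.68, adjusted p = 0.0161), and the call was lost without OE replicate 3 (adjusted p = 0.0868), control replicate 2 (0.0721) or control replicate 3 (0.0523). Of 12 class II genes 7 were higher, and the count fell to 1 without OE replicate 3 and to 2 without control replicate 2.

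Other immune cells were less marked. Of 9 neutrophil genes 3 were higher, with a median of 1.26 after 4.96 at 2 weeks, and the effect was smaller than at 2 weeks in 8. The count was 1 without OE replicate 3 or control replicate 2. Of 12 T and NK cell genes none was higher by limma or edgeR, 1 was higher by DESeq2 and 3 were higher at an unadjusted limma p under 0.05. By each tool 1 was lower, where 7.9% of all genes passed as lower by limma. Trac, the constant chain of the alpha-beta T cell receptor, stood at 50.4, 15.9 and 30.8 normalized reads against 84.5, 137 and 120. It fell by 1.90 on the log2 scale (adjusted p = 0.0137), a call lost without OE replicate 2 (adjusted p = 0.0733) or control replicate 2 (0.0567). None of 7 B and plasma cell genes passed by limma, edgeR or DESeq2, and 1 had an unadjusted limma p under 0.05.

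Extracellular matrix had more higher members at 5 weeks than at either earlier week. Of 39 collagen, matrix and fibroblast genes 14 were higher and none lower, with a median of 0.74, against 8 higher and 4 lower at 2 weeks (median 0.094) and 4 higher at 1 week (median 0.27). The effect was larger than at 2 weeks for 3 members (background 14.9%) and smaller for 1. That count of 3 was 12 without OE replicate 2, 0 without OE replicate 1, control replicate 3 or control replicate 2 of 2 weeks, and 1 without OE replicate 3, control replicate 2, or any of the 2-week libraries OE replicates 1 and 2 and control replicates 1 and 3. Dcn, the collagen-binding proteoglycan decorin, stood at 10233, 9107 and 7710 normalized reads against 2552, 1638 and 1330. The groups were far apart (log2 difference 2.34, SE 0.33, adjusted p = 0.000365). Col12a1, a fibril-associated collagen, stood at 2389, 1857 and 2091 against 623, 691 and 526, with no overlap (log2 difference 1.78, SE 0.30, adjusted p = 0.00123). Its effect was larger than at 1 week by 1.65 (adjusted p = 0.0296). Col1a1, the main fibrillar collagen, stood at 31248, 8386 and 15276 against 7043, 5042 and 4422. OE replicate 1 was the highest of its group here although it lay nearest the controls for the injury genes (log2 difference 1.56, adjusted p = 0.0211, interaction with 2 weeks 1.74, adjusted p = 0.0393). The Col1a1 call was lost without OE replicate 1 (adjusted p = 0.072), OE replicate 3 (0.0609), control replicate 2 (0.0667) or control replicate 3 (0.0832). Col3a1, chosen after its values had been seen, had a log2 difference of 0.94 (adjusted p = 0.118), and without OE replicate 2 it passed (1.42, adjusted p = 0.0217). The count of 14 was 9 without OE replicate 1 or control replicate 2, 8 without OE replicate 3 and 7 without control replicate 3.

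Of 14 metalloproteinases and inhibitors 9 were higher and none lower. Mmp7, an epithelial matrilysin, stood at 9.91, 66.4 and 62.4 normalized reads against 0, 0 and 1.02. With 153 reads against 1 the ratio was 139 with a 95% counting interval of 24.6 to 5538 (log2 difference 4.83, SE 0.89, adjusted p = 0.00205). Adam8, a sheddase of inflamed tissue, was higher by 2.41 (adjusted p = 0.000381). Egf, which the thick ascending limb and distal convoluted tubule make, stood at 13644, 4481 and 3723 against 44416, 44209 and 63535. Every OE library was below every control, and OE replicate 1 was the closest (log2 difference -3.03, SE 0.54, adjusted p = 0.00179).

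**Figure D5:**
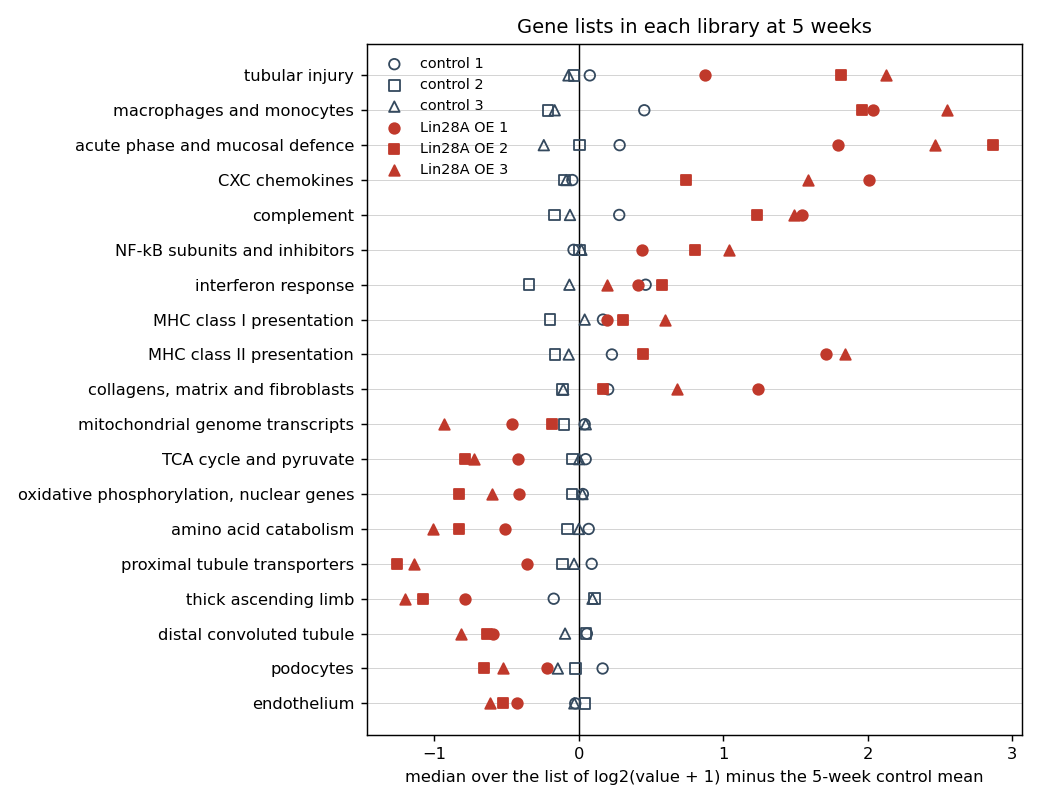
Median over each of 19 gene lists of log2(value + 1) minus the 5-week control mean, in each of the 6 libraries at 5 weeks, with 1 marker per library. For the injury list OE replicates 2 and 3 lie at 1.82 and 2.13 and OE replicate 1 at 0.87, whereas for the matrix list OE replicate 1 is the highest at 1.24 and OE replicate 2 lies within the control range at 0.17.

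The 3 OE libraries were not ordered alike across the gene lists. OE replicate 1 had the least reduced proximal tubule transporters, with a median log2 distance from the control mean of -0.36 against -1.26 and -1.14 in replicates 2 and 3. The same library had the highest median for CXC chemokines, 2.01 against 0.74 and 1.59. For MHC class II genes OE replicate 2 was the lowest, at 0.44 against 1.71 and 1.84 in replicates 1 and 3, and it was still above the highest control at 0.23.

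A minority of the proximal tubule genes passed the test as lower than control at 5 weeks, and most had risen from their 2-week trough. Slc34a1 stood at 46752, 16590 and 21470 normalized reads in the OE libraries against 97665, 89011 and 91768. OE replicate 1 was the least reduced and still below control (log2 difference -1.86, SE 0.42, adjusted p = 0.00713), after -5.01 at 2 weeks (interaction 3.15, adjusted p = 0.000896). Slc5a2, the glucose transporter SGLT2, stood at 3356, 1616 and 2924 against 10177, 9168 and 10287. The groups were apart (log2 difference -1.97, SE 0.28, adjusted p = 0.000363). Slc34a3, a second phosphate transporter, stood at 530, 103 and 360 against 1825, 1757 and 2255 (log2 difference -2.84, adjusted p = 0.00088). Of 27 proximal tubule transporters 9 were lower and 1 higher, with a median of -0.85 after -3.38 at 2 weeks, when all 27 had been lower (background 28.8%). The effect had moved up from 2 weeks in 25. It had moved up from 1 week, when the median was -1.14, in 2. For 14 of the 27 every OE library still lay below every control, as for 17.8% of all tested genes. The count of 9 depended on single libraries: it was 15 without OE replicate 1, 3 without OE replicate 2 or 3, 4 without control replicate 1 or 3 and 5 without control replicate 2. The higher member was Slc13a1, the sodium sulfate cotransporter, at 9993, 10380 and 10566 against 7656, 3215 and 3857. Its OE values were nearly equal and control replicate 1 was close to them (log2 difference 1.18, adjusted p = 0.0139, with -0.93 at 2 weeks), and the call was lost without OE replicate 3 (adjusted p = 0.0516), control replicate 2 (0.0757) or control replicate 3 (0.064). Lrp2, the endocytic receptor megalin, fell by 1.35 on the log2 scale (adjusted p = 0.0119), lost without OE replicate 2 (0.0606) or OE replicate 3 (0.0631). Of 18 endocytosis and peptidase genes 5 were lower, and 15 had moved up since 2 weeks. The count of 5 was 10 without OE replicate 1 and 2 without OE replicate 2 or 3. Of 10 transcription factors of the proximal tubule 1 was lower (background 7.9%) and none higher, with a median of -0.31, and 5 had moved up since 2 weeks.

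In the segments that follow, a larger share of members passed as lower. The median of the distal convoluted tubule list, -0.76, was nonetheless smaller in size than the -0.85 of the proximal tubule transporters. Umod, a gene chosen after its values had been seen, stood at 21824, 26957 and 24922 normalized reads against 45836, 61328 and 62603. No library overlapped (log2 difference -1.20, SE 0.29, adjusted p = 0.0113), and the call was lost under quantile normalization (-0.86, adjusted p = 0.0904). Ptger3, the prostaglandin E receptor of the thick ascending limb, stood at 996, 870 and 1073 against 2071, 4839 and 3665 (log2 difference -1.77, adjusted p = 0.000883). Of 14 thick ascending limb genes 10 were lower and none higher, with a median of -1.11 after -0.56 at 1 week and -1.92 at 2 weeks. The count was 5 without OE replicate 3 and 6 without control replicate 2. Pvalb, the calcium buffer parvalbumin of the early distal convoluted tubule, stood at 323, 27.1 and 163 against 1167, 1498 and 1090. It was low in all OE libraries and lowest in replicate 2 (log2 difference -3.44, SE 0.72, adjusted p = 0.00483). Of 14 distal convoluted tubule genes 9 were lower (median -0.76), a count of 4 without OE replicate 3, 5 without control replicate 2 and 6 without OE replicate 2, control replicate 1 or control replicate 3.

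Few genes of the collecting duct, which does not descend from Six2 cells, passed at 5 weeks, and the counts were unstable. Of 11 principal cell genes 1 was higher (background 7.67%) and none lower. It was Scnn1b, a subunit of the epithelial sodium channel, with a log2 difference of 0.73 (adjusted p = 0.012). Its call was lost without OE replicate 2 (0.0662) or OE replicate 3 (0.0616). The count of 1 was 5 without OE replicate 1, 4 by DESeq2 or with the replicate block, and 2 by edgeR. Of 13 intercalated cell genes 3 were lower, after 10 at 2 weeks, and 11 had moved up since then. The count of 3 was 0 without OE replicate 2 or control replicate 3 and 1 without OE replicate 3 or control replicate 2. Among the lower genes was Slc4a1, the basolateral anion exchanger, which fell by 1.19 on the log2 scale (adjusted p = 0.0254). Its call was lost without OE replicate 2 (0.124), OE replicate 3 (0.0649), control replicate 2 (0.0757) or control replicate 3 (0.0823).

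About as many podocyte genes were lower at 5 weeks as were not, although none had been lower at 1 week. Nphs1, the slit diaphragm protein nephrin, stood at 136, 133 and 101 normalized reads against 780, 696 and 633. Each group was tight (log2 difference -2.51, SE 0.37, adjusted p = 0.000514). Ptpro, a receptor phosphatase of the podocyte foot process, stood at 251, 161 and 198 against 935, 671 and 544, with no overlap (log2 difference -1.80, SE 0.28, adjusted p = 0.000588, interaction with 1 week -1.92, adjusted p = 0.00732). Of 13 podocyte genes 6 were lower and 1 higher. The list had 0 lower at 1 week and 7 lower at 2 weeks. The higher gene was Cd2ap, a slit diaphragm adaptor that many cells express, at 0.47 (adjusted p = 0.0312), lost without every library but OE replicate 1, at 0.073 to 0.15.

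Endothelial genes were lower by a smaller amount. Emcn, the sialomucin endomucin of capillaries, stood at 2523, 1962 and 1951 normalized reads against 4480, 5090 and 4153. The groups did not overlap (log2 difference -1.10, SE 0.22, adjusted p = 0.00349). Kdr, the VEGF receptor, fell by 0.80 on the log2 scale (adjusted p = 0.00402). Of 17 endothelial genes 12 were lower and none higher, with a median of -0.56, against -0.66 at 1 and -0.88 at 2 weeks. The count was 7 without OE replicate 3 or control replicate 3. Of 6 red blood cell transcripts 2 passed as lower by limma, 1 by edgeR and 3 by DESeq2, and in none did the libraries of the groups stand apart. The limma count was 5 without OE replicate 1 or control replicate 2 and 0 without any other of the 6 libraries. The median was -1.70, and the summed level was 12885 to 70423 in the OE and 54109 to 212779 in the control libraries, which overlap. The part of blood content in the endothelial difference was not tested.

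Mitochondrial energy genes of the nucleus were lower as a set, by little each. Ogdh, the 2-oxoglutarate dehydrogenase of the TCA cycle, stood at 14056, 10582 and 11266 normalized reads against 20458, 23040 and 21483. The groups were apart (log2 difference -0.87, SE 0.16, adjusted p = 0.00236). Of 25 genes of the TCA cycle and pyruvate 24 were lower, with a median of -0.64 after -0.75 at 1 week and -1.80 at 2 weeks. The effect had moved up since 2 weeks in 24, and in none did it pass as different from 1 week. Ndufs1, the largest subunit of complex I, stood at 7364, 4720 and 5186 against 10913, 9860 and 10835, again with OE replicate 1 nearest control (log2 difference -0.90, SE 0.16, adjusted p = 0.00164). Of 40 nuclear genes of oxidative phosphorylation 36 were lower, with a median of -0.61 after -0.65 at 1 week and -1.55 at 2 weeks. Since 2 weeks 37 had moved up, and none passed as different from 1 week. The count of 24 was 15 without OE replicate 3, and 13 under quantile normalization. That of 36 was 24 without OE replicate 2, 22 under quantile normalization and 11 in the libraries with Xist below 100.

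The 7 tested transcripts of the mitochondrial genome behaved otherwise in their test. None passed at 5 weeks by limma, by edgeR or by DESeq2, and none had an unadjusted p under 0.05. In 5 of the 7 the OE libraries all lay below the controls, as for 17.8% of all tested genes. The median log2 difference of the 7 was -0.54, after -0.83 at 1 week and -2.66 at 2 weeks. At 2 weeks all 7 were lower, and all 7 had moved up since. The 7 made up 6.30% ± 1.19 (SD, n = 3) of reads in the OE libraries and 7.97% ± 0.39 (SD, n = 3) in the controls, and all 37 genes of the mitochondrial genome together 6.78% ± 1.25 and 8.53% ± 0.41. The library protocol selects polyadenylated RNA, so this share is not a count of mitochondria.

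Amino acid catabolism, which the proximal tubule carries out, was lower in 21 of 32 members and higher in none. Its median was -0.78, after -1.19 at 1 week and -2.48 at 2 weeks. Bckdhb, of the branched-chain keto acid dehydrogenase, stood at 1275, 1183 and 1107 normalized reads against 2671, 2905 and 2781. Each group was tight (log2 difference -1.23, SE 0.12, adjusted p = 1.81e-05). Of 27 fatty acid oxidation genes 9 were lower, among them Hadha of the trifunctional protein, which fell by 0.69 on the log2 scale (adjusted p = 0.000742). The count was 4 without OE replicate 2, OE replicate 3 or control replicate 3 and 5 without control replicate 1. Of 23 genes of glycolysis and gluconeogenesis 8 were lower and none higher, with Hk1, a hexokinase, at -0.77 (adjusted p = 0.000618).

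Some stress regulators were still high. Cdkn1a, the cell cycle inhibitor p21, stood at 500, 1970 and 1114 normalized reads against 256, 355 and 155. OE replicate 1 was the nearest to control (log2 difference 2.09, SE 0.43, adjusted p = 0.00433), after a larger effect at 2 weeks (interaction -4.02, adjusted p = 0.000188). Of 17 p53 targets 5 were higher and 12 had come down since 2 weeks. The 5 became 3 without OE replicate 3 or control replicate 3, and the count tools gave 8 and 9. Atf3, a stress-induced factor, stood at 298, 487 and 475 against 98.3, 35.5 and 63.4 and was higher throughout (log2 difference 2.74, SE 0.37, adjusted p = 0.000242). Of the 18 members of the integrated stress response 2 were higher (background 7.67%) and 2 lower (background 7.9%), counts near those shares. The higher count was 1 without OE replicate 2, OE replicate 3 or control replicate 3 and 4 by DESeq2, and the lower count was 0 without OE replicate 2 and 1 without OE replicate 3, control replicate 2 or control replicate 3. None of 25 cell cycle genes passed by limma or edgeR, while 1 passed as lower by DESeq2 and 1 had an unadjusted limma p under 0.05. None of 16 circadian clock genes passed by limma, with 1 higher and 4 lower at an unadjusted p under 0.05, and with 1 called by edgeR and 3 by DESeq2.

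Of 22 tested genes of the list of Lin28 and let-7 target regulators, 7 were higher and none lower, with a median of 0.34. At 2 weeks 16 were higher. The effect had become smaller in 12. The list holds Lin28a itself, its highest member at 4.48, so each of these counts includes the induced gene. Igf2bp2, an RNA-binding protein whose transcript is a let-7 target, stood at 431, 664 and 661 normalized reads against 210, 181 and 173. Every OE library was more than the highest control (log2 difference 1.61, SE 0.16, adjusted p = 2.27e-05), and its effect had come down by an interaction of -1.69 (adjusted p = 8.15e-05). Myc, a growth factor-induced transcription factor, stood at 353, 861 and 865 against 179, 163 and 170, with a log2 difference of 1.90 (SE 0.36, adjusted p = 0.00258). Of 12 imprinted fetal growth genes 3 were higher. Meg3, a maternally expressed noncoding RNA, stood at 463, 220 and 305 against 120, 87.5 and 87 (log2 difference 1.68, adjusted p = 0.00549), and Grb10, a receptor adaptor that limits growth, was higher by 0.67 (adjusted p = 0.00247). Kl, the tubule hormone and FGF23 coreceptor Klotho, stood at 11400, 5084 and 7689 against 21479, 19980 and 21055. It was lower in all OE libraries (log2 difference -1.45, SE 0.32, adjusted p = 0.00707).

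The largest differences at 5 weeks included genes outside these lists. Sprr2f, a small proline-rich protein of the cornified envelope, stood at 65.7, 470 and 659 normalized reads against 2.11, 0.912 and 0. With 1326 reads against 3 the ratio was 402 with a 95% counting interval of 137 to 1954 (log2 difference 7.24, adjusted p = 8.9e-05). Sprr2f and Sprr2g are close copies, and how shared reads were counted was not stated. Adam23, a catalytically inactive metalloproteinase relative, stood at 231, 808 and 715 against 15.8, 9.12 and 7.16. It was higher by 5.52 (SE 0.56, adjusted p = 2.27e-05), and its effect exceeded that at 1 week by 3.05 (adjusted p = 0.0292). Arhgap36, an X-linked activator of Hedgehog signalling, stood at 79.3, 52.4 and 91.4 against 0, 1.82 and 0. It had been at 0, 3.56 and 3.24 in the OE libraries of 2 weeks, so the rise was late (log2 difference 5.70, adjusted p = 4.06e-05, interaction with 2 weeks 5.00, adjusted p = 0.000593).

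At the other end, Dnase1, a secreted nuclease, stood at 1880, 579 and 370 normalized reads against 16747, 14353 and 10589. The OE values were far lower (log2 difference -4.21, SE 0.64, adjusted p = 0.000577). Nat8f6, of the N-acetyltransferase 8 family, stood at 10.8, 1.87 and 11.4 against 101, 499 and 493 (log2 difference -5.29, SE 0.61, adjusted p = 6.13e-05). Cacna2d2, an auxiliary calcium channel subunit, stood at 18, 9.35 and 8.79 against 152, 160 and 222. The OE libraries were all low (log2 difference -3.83, SE 0.44, adjusted p = 6.13e-05), after -3.84 at 2 weeks (interaction 0.02, SE 0.62). Slc10a1, a bile acid transporter, fell by 3.83 on the log2 scale (adjusted p = 0.00282), with OE values of 91.9, 15.9 and 7.03 against 465, 246 and 315.

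A few genes crossed from one side of control to the other. There were 10 lower DEGs of 2 weeks that were higher DEGs at 5 weeks and 10 with the opposite course. Pappa2, a protease that frees insulin-like growth factors and is made near the macula densa, stood at 547, 531 and 809 normalized reads against 84.5, 102 and 34.8 at 5 weeks. At 2 weeks it had stood at 19.5, 26.7 and 53.4 against 77.5, 130 and 129, so that the OE libraries went from below all controls to above all of them. The log2 difference was 3.18 (SE 0.48, adjusted p = 0.000557) at 5 and -1.81 at 2 weeks, and the interaction was 4.99 (adjusted p = 7.91e-05). Its controls of 5 and 2 weeks did not pass as different (-0.69, adjusted p = 0.718). Cyp4a12b, a fatty acid hydroxylase that male mice express more, stood at 121, 365 and 378 against 32.8, 27.3 and 25.6. Here the controls had moved too, from 77.5, 207 and 276 at 2 weeks (log2 difference between control groups -2.49, adjusted p = 0.0434), beside an OE difference of 3.12 (adjusted p = 0.000363) and an interaction of 4.53 (adjusted p = 9.25e-05). The uneven count of libraries with Xist above 100 at 2 weeks enters this interaction. It was 4.37 (adjusted p = 0.000119) with Xist as a covariate and 4.23 in the libraries below 100. The latter fit lacks 2 of the 3 OE libraries of 2 weeks, so only its size is given. Cyp4a12b has a near copy, Cyp4a12a.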

How the data were processed

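Kidney RNA of 18 libraries was sequenced by the authors as polyadenylated RNA in single 75-base reads, mapped with STAR to mm10, counted with HTSeq and normalized with DESeq2 (versions and the strand setting are not given in the sources used here). The deposited values are such normalized signal, and all (100%) returned whole reads within 0.001. Here log2(value + 1), which understates changes of low genes, was fitted with limma 3.58.1 (R 4.3.3, trend) over 6 groups in 1 model, for genes with a mean above 10, with Benjamini-Hochberg adjustment. The limma step was tested on simulated data. edgeR 4.0.16 and DESeq2 1.42.0 on the recovered reads, other pseudocounts, filters, scalings, sample sets and leaving out each library were alternatives. Counting intervals and floors cover counting error only.

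The members and the 54 gene lists were chosen with earlier results of these data known. Named genes were those the study names, the 10 largest rises and falls without overlap, the 4 largest changes of each list with any member against it, the largest differences from 2 weeks, and some chosen after their values were seen, as stated. Some genes that the rule names are not reported here.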

Additional observations from a re-analysis of the deposited data

Results flagged for a closer look

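The results given here were picked out because the OE effect at 5 weeks differed from that at 2 weeks or 1 week by a test of the difference itself (limma interaction, adjusted p under 0.05). With a change of more than 1 on the log2 scale as well, the effect was higher at 5 weeks than at 2 weeks for 1530 genes and lower for 1234, and it was higher than at 1 week for 182 genes and lower for 432. The interaction also moves with the controls of each week, whose own difference was 14 DEGs between 5 and 2 weeks and 0 between 5 and 1 weeks by limma.

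Among the gene lists, those in which at least 80% of the tested members passed this test against 2 weeks are given here. The effect was lower at 5 weeks for 30 interferon response genes, 13 interferon-induced GTPases, 15 MHC class I genes and 8 neutrophil genes. It was higher, that is less far below control, for 25 proximal tubule transporters, 15 endocytosis and peptidase genes, 11 intercalated cell genes, 24 genes of the TCA cycle and pyruvate, 37 nuclear genes of oxidative phosphorylation, 7 mitochondrial genome transcripts, 23 fatty acid oxidation genes and 27 genes of amino acid catabolism.

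Of single genes that were DEGs at 5 weeks and on the other side of control, or within its range, at 2 weeks, the interaction on the log2 scale was 4.53 for Cyp4a12b, 4.99 for Pappa2, 3.02 for Aldh1a7, 5.00 for Arhgap36 and 2.45 for Krt14. Aldh1a7, an aldehyde dehydrogenase of the kidney named after its values had been seen, stood at 347, 597 and 782 normalized reads in the OE libraries at 5 weeks and at 217, 161 and 178 in the controls (log2 difference 1.56, adjusted p = 0.00524). Its controls at 2 weeks had stood at 374, 581 and 870, and the control groups of both weeks differed by -1.64 (adjusted p = 0.0708).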

How the results depend on the processing

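Of 190 named genes called at 5 weeks, 99 kept their call under each of the 19 alternatives, and 70 lost it without at least 1 library. With the DEG counts in the report, the 4 libraries with Xist below 100 gave 496 higher and 238 lower DEGs at 5 weeks, 121 higher interactions with 1 week, 382 higher and 198 lower DEGs shared with 2 weeks, 94 lower ones shared with 1 week, and 91 DEGs between the controls of 5 and 2 weeks. The compared groups alone gave 338 lower DEGs, 282 lower ones shared with 2 weeks and 4 between the controls of 5 and 1 weeks. DESeq2 gave 345 higher interactions with 1 week, 143 DEGs between the controls of 5 and 2 weeks and 16 between those of 5 and 1 weeks, where no filter gave 1. The cause was not tested.

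Leaving out single libraries gave 486 to 973 higher and 289 to 803 lower DEGs, 83 to 273 higher interactions with 1 week, 404 to 717 higher and 236 to 660 lower DEGs shared with 2 weeks, and 116 to 348 lower ones shared with 1 week. Between controls it gave 3 to 151 DEGs for 5 against 2 weeks and 0 to 1 for 5 against 1 week. Lower DEGs numbered 803 without OE replicate 1, 296 without OE replicate 2 and 289 without OE replicate 3.

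The replicate block gave 804 higher and 491 lower DEGs, and 10 of the 190 named calls were lost with it. Same-numbered libraries at 5 weeks correlated in their deviations at 0.206, 0.082 and 0.0045, and differently numbered ones at -0.170 to 0.117. The labels give no pairing beyond the number, and these values do not settle whether there was any.

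Direction turned for genes that were not called at 5 weeks. Quantile normalization gave -0.18 for Slfn4, -0.045 for Apol9a and -0.10 for Isg15, and Isg15 was at -0.043 with edgeR, -0.048 with DESeq2 and -0.14 with Xist below 100. Without single libraries Slfn4 ranged from -0.34 to 0.41, Apol9a from -0.20 to 0.76, Trim12a from -3.66 to 0.040, Isg15 from -0.20 to 0.43 and Rsad2 from -0.58 to 0.010. At 3 libraries a group, genes under about 10 normalized reads rest on few reads.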
